A study of Saccharomyces cerevisiae with 6 samples.

Results

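YHB1 (YGR234W) is the flavohemoglobin gene of budding yeast, Saccharomyces cerevisiae. It was taken as the row of that systematic name in the deposited table, 1 gene of 6282. The table held 6 2-colour arrays, each comparing RNA of an aerobic culture with RNA of a hypoxic culture of the same strain. The strain was wild type on 3 arrays and carried a deletion of HAP1 on 3, and the replicates of a strain were separate cultures grown on different days. The sources used here do not give the oxygen level, the time in hypoxia or the strain background. In each strain the hypoxic RNA was labelled with Cy5 for replicates 1 and 3, and with Cy3 for replicate 2.

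Flavohemoglobins join a heme-binding globin domain to a reductase domain that carries flavin. In the presence of oxygen the yeast protein turns nitric oxide into nitrate, which protects cells against nitrosative stress, and it is the main enzyme known for this in yeast. Both the heme cofactor and the dioxygenase reaction need oxygen. Hap1 is a zinc-cluster transcription factor that activates genes of respiration and oxygen use when heme is plentiful, and YHB1 has been described as one of its targets. A second regulator, Fzf1, is known to induce YHB1 when cells meet nitric oxide.

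In wild-type cells YHB1 RNA was far lower in hypoxia than in air, and in cells lacking HAP1 it did not pass the test for a change. Values are log2 ratios of hypoxic over aerobic RNA, so that a negative value means less RNA in hypoxia. They read -4.64, -5.02 and -5.52 on wild-type replicates 1, 2 and 3. On hap1 deletion replicates 1, 2 and 3 they read 0.27, -0.10 and -0.03. The 3 wild-type values all lay far below the 3 deletion values, with a gap of 4.55 between the nearest arrays of the strains. The array with swapped dyes fell between the other arrays of its strain in wild type and was the lowest of the 3 in the deletion strain.

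The wild-type mean was -5.06 ± 0.44 (SD, n = 3), a 33.4-fold fall with a 95% interval from 23.5-fold to 47.3-fold (limma's moderated test, Benjamini-Hochberg adjusted p = 0.000386). Of 6208 genes tested, 2.32% were lower in hypoxia in wild type at an adjusted p under 0.05, and YHB1 had the smallest p-value. The single arrays gave falls of 25.0-fold, 32.4-fold and 46.0-fold. Its spread around the strain means was 0.341 (residual SD, log2), against a median of 0.415 over the genes tested.

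In the deletion strain the mean was 0.05 ± 0.19 (SD, n = 3; limma adjusted p = 0.909), and 4.32% of genes passed there in either direction. The 95% interval of this mean ran from -0.46 to 0.55. It holds changes as large as 1.37-fold lower or 1.47-fold higher in hypoxia, which these arrays could not tell from no change. The calls in the deletion strain were 155 higher (2.5%) and 113 lower (1.82%), and 154 and 71 with the arrays centred and scaled to the same spread.

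Subtracting the wild-type response from that of the deletion strain gave a difference of 5.11 on the log2 scale (limma's moderated SE 0.302, 95% interval 4.40 to 5.82, adjusted p = 0.00389). Only 0.354% of genes passed this test. They were 19 with a positive (0.306% of genes tested) and 3 with a negative difference (0.0483%), and 3 and 0 with the arrays centred and scaled to the same spread, where YHB1 had an adjusted p of 0.0528. A two-sided exact permutation test of the 6 YHB1 values alone gave p = 0.1, the smallest p that 3 arrays against 3 allow. Within the arrays that carried hypoxic RNA in Cy5, 2 of each strain, the difference was 5.20, and between the single arrays with Cy3 it was 4.92.

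Each value is a ratio of 2 cultures of the same strain. A ratio near 0 in the deletion strain therefore cannot tell a low YHB1 level in both cultures from a high level in both, and no level of RNA in either gas was measured here. Aerobic YHB1 RNA was not compared between the strains on any array. As bulk RNA of whole cultures, the ratios also cannot tell fewer cells with the transcript from less transcript per cell.

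**Figure D1:**
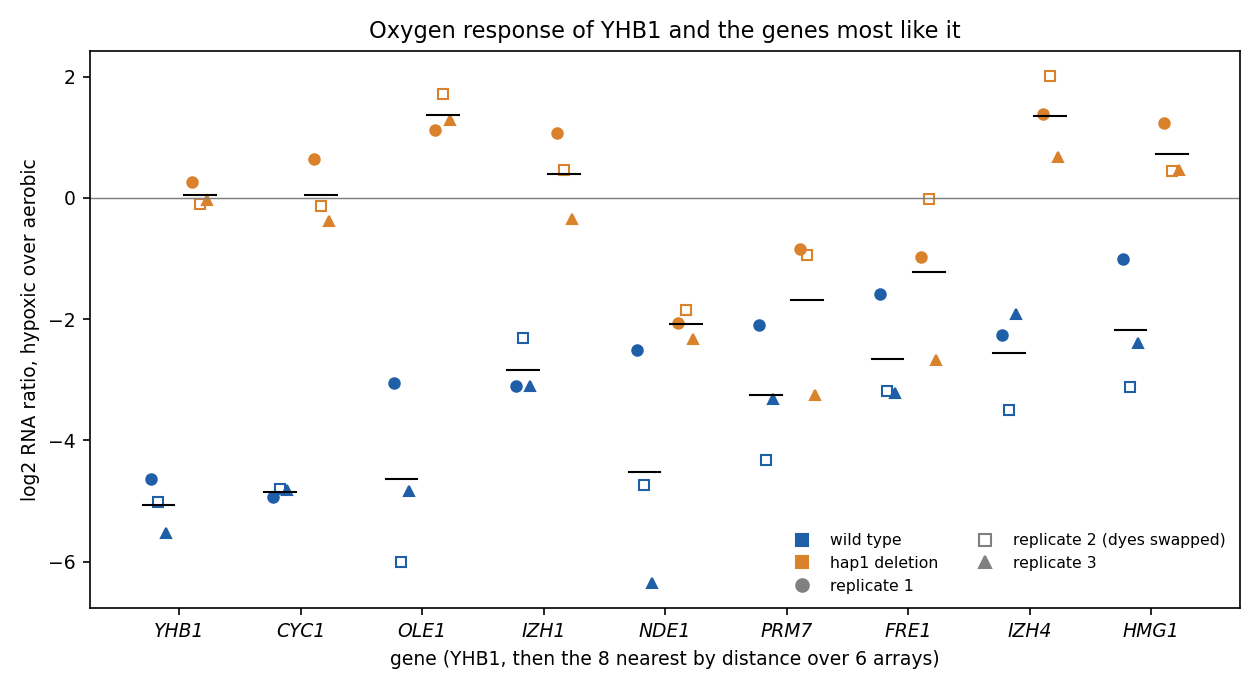
Log2 RNA ratio (hypoxic over aerobic, vertical axis) on each of the 6 arrays for YHB1 and the 8 genes with the nearest values (horizontal axis). Blue marks wild type, orange marks the hap1 deletion, marker shapes are replicates and black lines are strain means. YHB1 and CYC1 lie near -5 on every wild-type array and near 0 on every deletion array, while the other genes are more scattered.

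YHB1 stood at the bottom of the wild-type table on every array. It was the second lowest of 6267 genes on replicate 1, the third lowest of 5933 on replicate 2 and the second lowest of 6251 on replicate 3. A different gene lay below it each time. CYC1, the main cytochrome c, read -4.93 on replicate 1. OLE1, the fatty acid desaturase, read -6.01 on replicate 2 and NDE1, the external NADH dehydrogenase of mitochondria, read -6.35 on replicate 3. ASI2, named after its values were seen, read -5.40 on replicate 2 but 2.01 and 1.07 on replicates 1 and 3. Measured against the spread of all genes on an array, YHB1 lay 9.75, 14.3 and 15.2 median absolute deviations below the array's median.

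On the deletion arrays YHB1 sat in the middle of the distribution. Of the genes with a value, 72.3%, 48.4% and 52.2% were lower than YHB1 on replicates 1, 2 and 3. Among 5301 genes with all 6 values, YHB1 had the lowest wild-type mean, and 4 genes in all had a wild-type mean at or below -4. Only 7.73% of these genes had a deletion mean closer to 0. Its gap of 4.55 between the nearest arrays of the strains was the largest of the 5301 genes, of which 12 had a gap of at least 2 and 806 (15.2%) had groups that did not overlap.

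In the order of wild-type means YHB1 was followed by CYC1 (-4.85), OLE1 (-4.63), NDE1 (-4.53), PRM7 (-3.24) and IZH1 (-2.83). YHB1 minus CYC1 on the same array was 0.29, -0.21 and -0.71 in wild type, a mean of -0.21 ± 0.50 (SD, n = 3). YHB1 and CYC1 therefore changed places between arrays, and their mean difference was smaller than its spread. For OLE1 and NDE1 the mean of YHB1 minus the gene was also smaller than its spread, at -0.43 ± 1.31 and -0.53 ± 1.50. These differences were not tested, and 3 arrays cannot show that the genes responded equally. PRM7, which is induced by mating pheromone, and IZH1, which acts in zinc homeostasis, lay above YHB1 on all 3 wild-type arrays. The mean differences from them were -1.82 ± 0.99 and -2.23 ± 0.61.

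**Figure D2:**
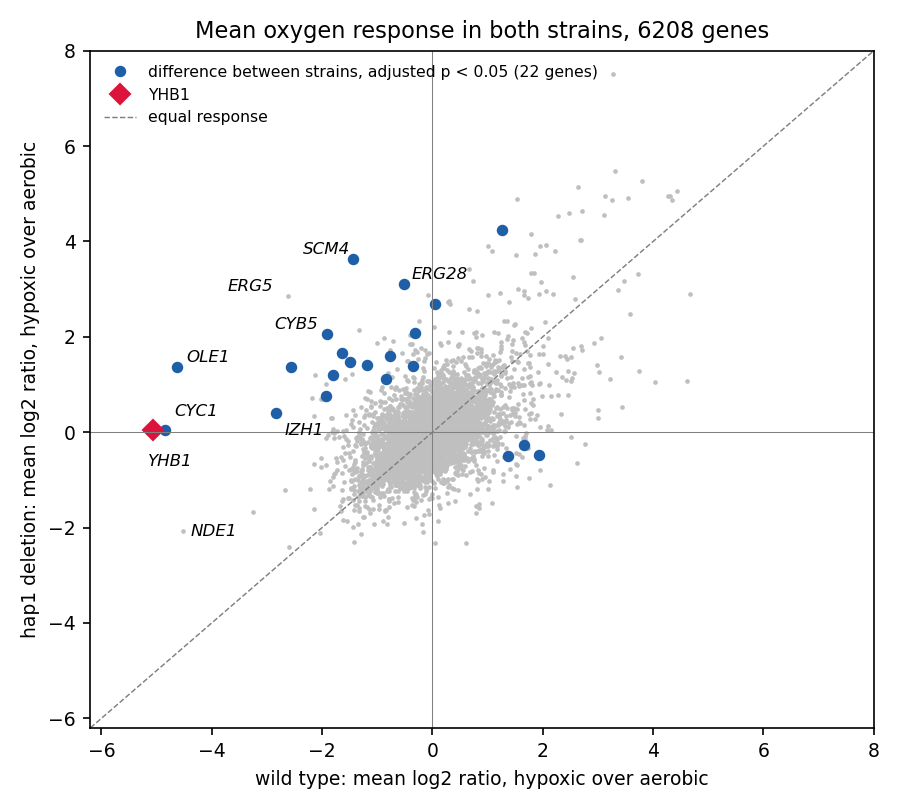
Mean log2 RNA ratio (hypoxic over aerobic) in wild type (horizontal axis) against the hap1 deletion (vertical axis) for the 6208 genes tested. Each grey point is a gene, blue points passed the test of the difference between strains, and the red diamond is YHB1 at -5.06 and 0.05. CYC1 lies almost on the same spot, and NDE1 lies lower at -4.53 and -2.08.

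Genes that passed the test of the difference had several shapes of response. YHB1 was 1 of 6 that fell in wild type and did not pass in the deletion strain, with CYC1, OLE1, IZH1, IZH4 and URA1. Not all of these were flat in the deletion strain. OLE1, IZH4 and URA1 had means of 1.37, 1.36 and 0.76 there and lay above 0 on every deletion array. A further 5 fell in wild type and rose in the deletion strain (CYB5, ERG8, ERG13, MVD1 and PRM10), and 7 did not pass in wild type and rose in the deletion strain. FHN1 rose in both strains. PTR2, IDH2 and TIP1 rose in wild type without passing in the deletion strain. Among all 22 genes, CYC1 (0.04 ± 0.53) and YHB1 (0.05 ± 0.19) had deletion means nearest to 0, and IDH2, at -0.27 ± 0.23, came next. In the main fit only OLE1 (6.01) and ERG5 (5.48), a cytochrome P450 of sterol synthesis, had a larger difference than YHB1. ERG5 read -0.04, -3.75 and -4.06 in wild type, and its difference between strains did not pass (limma adjusted p = 0.155). Below YHB1 the next largest differences were those of SCM4 (5.08), a mitochondrial outer membrane protein, CYC1 (4.89), PAU6 (4.24), a seripauperin, CYB5 (3.97) and IZH4 (3.92). The difference of PAU6 did not pass (limma adjusted p = 0.404), and members of the seripauperin family may share signal between spots.

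Likeness to YHB1 was measured as the Euclidean distance between the 6 log2 ratios of each gene and those of YHB1. CYC1 was nearest, at 0.948. OLE1 followed at 3.11, IZH1 at 4.08 and NDE1 at 4.37, and the median over 5300 genes was 8.82. PRM7 (4.92), FRE1 (5.15), IZH4 (5.21) and HMG1 (5.30) made up the 8 nearest. FRE1 is a ferric reductase that holds heme, IZH4 a relative of IZH1, and HMG1 the main HMG-CoA reductase, early in sterol synthesis. Of these, CYC1 alone kept a distance under 1.

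CYC1 carries electrons to cytochrome oxidase and is a well-known target of Hap1. Its values were -4.93, -4.81 and -4.81 in wild type and 0.64, -0.13 and -0.38 in the deletion strain. As for YHB1, the strains did not overlap and the deletion values lay on both sides of 0. The difference of CYC1 was 4.89 with SE 0.319 (limma adjusted p = 0.00389). YHB1 and CYC1 kept the call in the difference whichever of the 6 arrays was left out. They were the only 2 genes called when any array other than wild-type replicate 1 was left out.

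Pearson's r over the 6 arrays, which does not look at the size of a change, gave other genes. Among 452 genes with a difference of at least 1 between strains in either direction, the 8 highest r ran from 0.991 to 0.996. They were YOL029C, YDR271C, CYB5, ERG8, ERG28, ERG26, MSC7 and LEU1, and none was among the 8 nearest by distance. The 6 points fall into 2 clusters, the strains, so r here mostly records a clean step between them. YOL029C, a gene without a name, had the highest r and read -1.47, -1.54 and -1.69 in wild type. It read -0.14, -0.24 and -0.04 in the deletion strain, so its step was smaller than that of YHB1. The differences of YOL029C and YDR271C (limma adjusted p = 0.0827 for both) and of LEU1 (limma adjusted p = 0.136) did not pass. CYB5, cytochrome b5, read -1.18, -2.08 and -2.48 in wild type and 2.25, 1.79 and 2.13 in the deletion strain. The 6 arrays rank in the same order for CYB5 and YHB1.

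Of 7 genes of nitric oxide and nitrite defence and further Fzf1 targets, none passed in wild type, where 1 had an unadjusted p under 0.05, as did 24.1% of all genes. Their wild-type median was -0.28, beside -0.04 over all genes tested. None passed in the difference between strains either, where 2 had an unadjusted p under 0.05 (7.97% of all genes did) and the median was 0.38, against -0.03 over all genes. The wild-type means of the 7 lay between -0.66 and 0.33, all far from the -5.06 of YHB1. In the deletion strain 1 gene rose, where 2.5% of all genes did.

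SFA1, the enzyme that reduces S-nitrosoglutathione and so clears nitrosative stress by another route, read 0.17, -0.11 and -0.18 in wild type. In the deletion strain SFA1 read -0.56, -0.06 and -0.36. The strains overlapped, and the difference of -0.29 did not pass (limma adjusted p = 0.792). FZF1, the regulator itself, read -0.85, -0.36 and 0.10 in wild type and 0.24, 0.05 and -0.10 in the deletion strain, again with overlap (limma adjusted p = 0.745 for the difference). SSU1, the sulfite exporter that Fzf1 controls, ranged from -0.33 to 1.16 on the wild-type arrays and from -0.87 to 2.08 on the deletion arrays, with overlap.

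YNR064C, an epoxide hydrolase gene, was the gene of this list that rose in the deletion strain. Its values were -0.35, -0.23 and -0.25 in wild type and 1.82 and 1.53 on deletion replicates 2 and 3, with none on replicate 1. The deletion mean was 1.67 (limma adjusted p = 0.0170), and it was not called without deletion replicate 2 or 3. The difference between strains was 1.95 (SE 0.273) and did not pass (limma adjusted p = 0.0827). DDI3, a cyanamide hydratase gene, read -0.99, -0.38 and -0.61 in wild type and -0.04, 0.44 and 0.63 in the deletion strain. Its groups did not overlap, and its difference of 1.003 did not pass (limma adjusted p = 0.419). DDI3 has a near-identical copy, DDI2, so their spots may share signal. DDI2 had means of -0.36 and -0.18, and DDR48, a stress protein, had 0.16 ± 1.09 and 0.11 ± 1.35 (SD, n = 3) in wild type and deletion. DDR48 had values of both signs in each strain, and DDI2 read 0.53, -0.44 and -1.18 in wild type. The deletion mean of DDI2 came from 2 arrays, replicates 2 and 3.

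**Figure D3:**
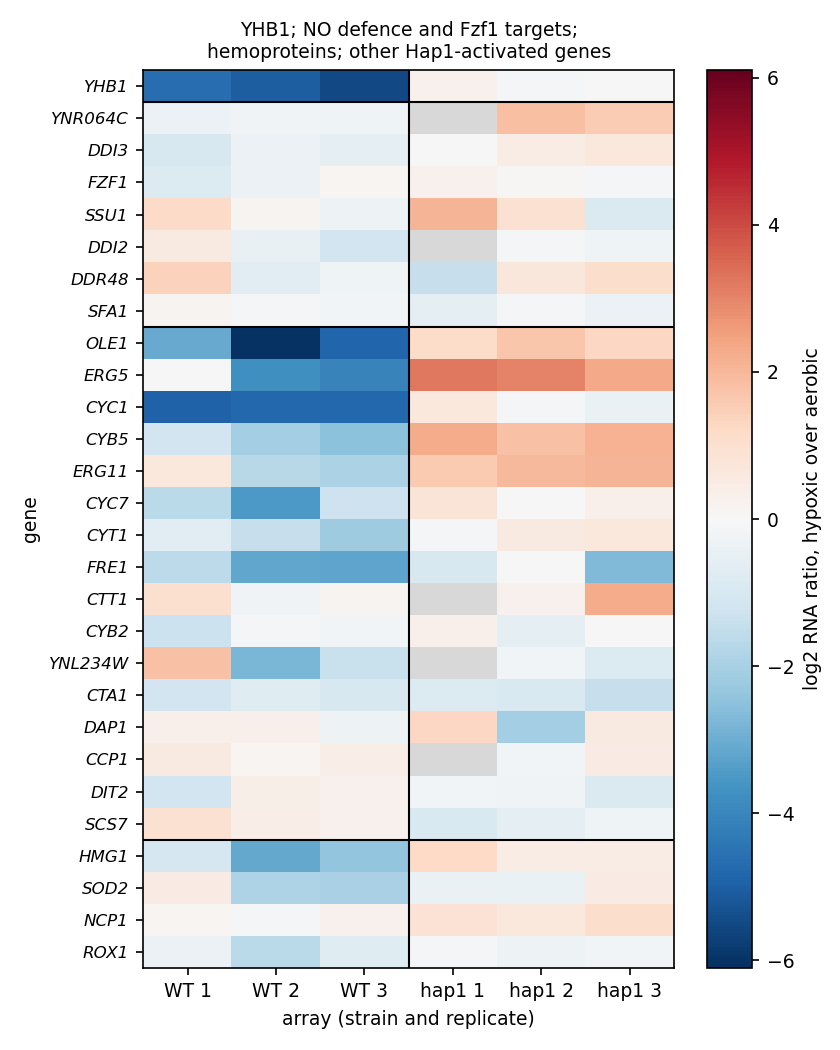
Log2 RNA ratio (hypoxic over aerobic, colour) on each array (columns, 3 wild type and then 3 hap1 deletion) for YHB1 and members of 3 gene lists (rows, separated by black lines). Grey cells have no value. The nitric oxide and Fzf1 rows are pale in wild type, while YHB1, CYC1 and OLE1 are dark blue there.

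YHB1 needs heme, and 16 other genes of heme proteins or of proteins with a related heme-binding or globin domain were set beside it. In wild type 6 of the 16 fell, none rose and 10 did not pass, with a median of -0.98 beside -0.04 over all genes. Over all genes tested 2.32% fell and 1.92% rose. The 6 were CYC1, OLE1, CYB5, CTA1 (peroxisomal catalase), CYC7 (the minor cytochrome c) and FRE1. In the difference between strains 3 were higher in the deletion strain (OLE1, CYC1 and CYB5), none was lower, and the median was 1.20, beside -0.03 over all genes. Over all genes tested 0.306% were higher and 0.0483% lower in this difference. The wild-type falls were fewer with 1 array left out, down to 1, CYC1, without wild-type replicate 2 or 3. They numbered 2 without deletion replicate 2 and 4 to 5 without the others. The count in the difference went to 5 without wild-type replicate 1 and to 1, CYC1, without any of the other 5 arrays.

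Other heme proteins had other patterns. CTA1 read -1.19, -0.73 and -0.98 in wild type and -0.83, -0.94 and -1.40 in the deletion strain, where it also fell (limma adjusted p = 0.0313), and the strains overlapped. This second call was lost when any array other than wild-type replicate 1 was left out. CCP1, cytochrome c peroxidase, read 0.57, 0.12 and 0.41 in wild type and did not pass (limma adjusted p = 0.338). CTT1, the cytosolic catalase, had means of 0.30 and 1.26 in wild type and deletion and passed in neither. Its deletion mean came from 2 arrays, replicates 2 and 3, which read 0.26 and 2.27. SCS7, a sphingolipid hydroxylase with a cytochrome b5 domain, had the opposite sign, at 0.54 ± 0.36 in wild type and -0.57 ± 0.33 in the deletion strain. Its difference did not pass (limma adjusted p = 0.382).

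YNL234W, which encodes a globin-like heme protein, is the other globin of the list. It read 1.78, -2.78 and -1.36 in wild type and -0.14 and -0.83 on deletion replicates 2 and 3. The wild-type arrays went both ways, and no change passed (limma adjusted p = 0.590 in wild type and 0.968 for the difference).

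Cytochrome oxidase, which can form nitric oxide from nitrite at low oxygen, has an aerobic and a hypoxic form of 1 subunit. COX5A, the aerobic form, read -1.12, -1.25 and -2.98 in wild type and fell (limma adjusted p = 0.0453), a call lost when any 1 of the 6 arrays was left out. COX5B, the hypoxic form, read 2.23, 3.55 and 0.68 there, above 0 on all 3 arrays, and did not pass (limma adjusted p = 0.0574). In the deletion strain the means were -0.12 ± 0.14 and 0.76 ± 0.45, and neither passed.

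YHB1 can also be placed among 11 other textbook Hap1-activated genes, 7 of which are heme proteins already counted. In wild type 4 of the 11 fell (CYC1, CYC7, HMG1 and CYB5) and none rose, with a median of -1.12 beside -0.04 over all genes, of which 2.32% fell. In the deletion strain, where 2.5% of all genes rose, 2 rose, CYB5 and NCP1 (the reductase partner of cytochrome P450), and none fell. The difference was above 0 for all 11, with a median of 1.77, and passed for 2, CYC1 and CYB5, against 0.306% of all genes. Without wild-type replicate 2 or 3 or deletion replicate 2, CYC1 alone fell. In the difference CYB5 lost its call when any array other than wild-type replicate 1 was left out. No gene of the list was called in the deletion strain when any 1 deletion array was left out.

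After YHB1 and CYC1, the next lowest wild-type means among these genes were those of HMG1 (-2.17 ± 1.07) and CYC7 (-2.15 ± 1.20). HMG1 read -1.01, -3.12 and -2.39, CYT1 (cytochrome c1) read -0.62, -1.42 and -2.17, and ROX1 (a repressor of hypoxic genes) read -0.36, -1.66 and -0.75. Each of these 3 varied over more than 1 log2 unit between wild-type arrays, and CYT1 and ROX1 did not pass. CYB2, lactate dehydrogenase, had a mean of -0.53 ± 0.68 and SOD2, mitochondrial superoxide dismutase, had -1.12 ± 1.40. Neither passed.

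Supply of the cofactors of flavohemoglobin was looked at through 8 heme and 8 flavin synthesis genes. Of these 16 genes 1 rose and none fell in wild type, and the same numbers were found in the deletion strain. Over all genes 1.92% and 2.5% rose. The gene was HEM13, the oxygen-dependent coproporphyrinogen oxidase, with values of 2.13, 3.68 and 3.38 in wild type and 2.12, 1.90 and 1.88 in the deletion strain. It ran opposite to YHB1 in wild type, and its difference of -1.09 between strains did not pass (limma adjusted p = 0.592). The wild-type call was lost without wild-type replicate 2 or 3, and the deletion call without any 1 deletion array. The list medians were 0.08 in wild type and 0.21 in the deletion strain. The flavin genes RIB1, RIB2, RIB3, RIB4, RIB5, RIB7, FMN1 and FAD1 had wild-type means from -0.40 to 0.47, and none passed.

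Among 24 genes of oxidative stress defence 2 fell and none rose in wild type, with a median of 0.12, where 2.32% of all genes fell and 1.92% rose. They were CTA1 and TSA1, the main cytosolic peroxiredoxin, which read -1.39, -2.32 and -2.37 in wild type and -1.34, -0.28 and -0.58 in the deletion strain. Both calls were lost without any 1 wild-type array or without deletion replicate 2. In the deletion strain GRX1, a glutaredoxin, rose and CTA1 fell, where 2.5% of all genes rose and 1.82% fell. GRX1 kept its call only without deletion replicate 1. No gene of this list passed in the difference between strains, and 1 had an unadjusted p under 0.05, against 7.97% of all genes. TSA1 had a difference of 1.29 (limma adjusted p = 0.443). SOD1, the cytosolic superoxide dismutase, had means of -1.01 ± 1.27 and -1.28 ± 0.31 (SD, n = 3) in wild type and deletion and passed in neither. Its wild-type arrays went both ways, at 0.45, -1.58 and -1.90.

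None of 18 genes of oxygen, heme and stress regulators passed in any of the 3 comparisons, and 4, 4 and 1 had an unadjusted p under 0.05 in wild type, deletion and difference. The shares of all genes with such a p were 24.1%, 24.7% and 7.97%. The HAP1 spot read 0.84, 0.50 and 1.10 in wild type and 0.47, 0.56 and 0.72 in the deletion strain. With 1 strain in both channels, this ratio does not check the deletion. Their medians were -0.04 in wild type and -0.02 in the deletion strain. HAP4, the regulated subunit of the respiratory activator complex, varied from -1.57 to 1.38 between wild-type arrays.

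The genes that flank YHB1 on chromosome VII did not share its response. In the order of the RefSeq gene table (assembly R64), the nearest gene to the left is PHO81, a phosphate regulator transcribed away from YHB1, and to the right MIC26, a mitochondrial inner membrane protein transcribed towards it. PHO81 read -0.77, -0.78 and -0.25 in wild type and -0.25, -0.34 and -0.33 in the deletion strain. MIC26 read 0.19, 0.12 and -0.08 in wild type and 0.16, 0.54 and 0.48 in the deletion strain. The strains overlapped for PHO81 and for MIC26, and neither passed in any comparison. Of the 5 annotated genes on each side, 8 were tested, and BNS1 and SPG1 had too few values in the deletion strain. None of the 8 passed in wild type, deletion or difference, and 5, 1 and 1 had an unadjusted p under 0.05, against 24.1%, 24.7% and 7.97% of all genes. Their wild-type means lay between -0.88 and 0.74.

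**Figure D4:**
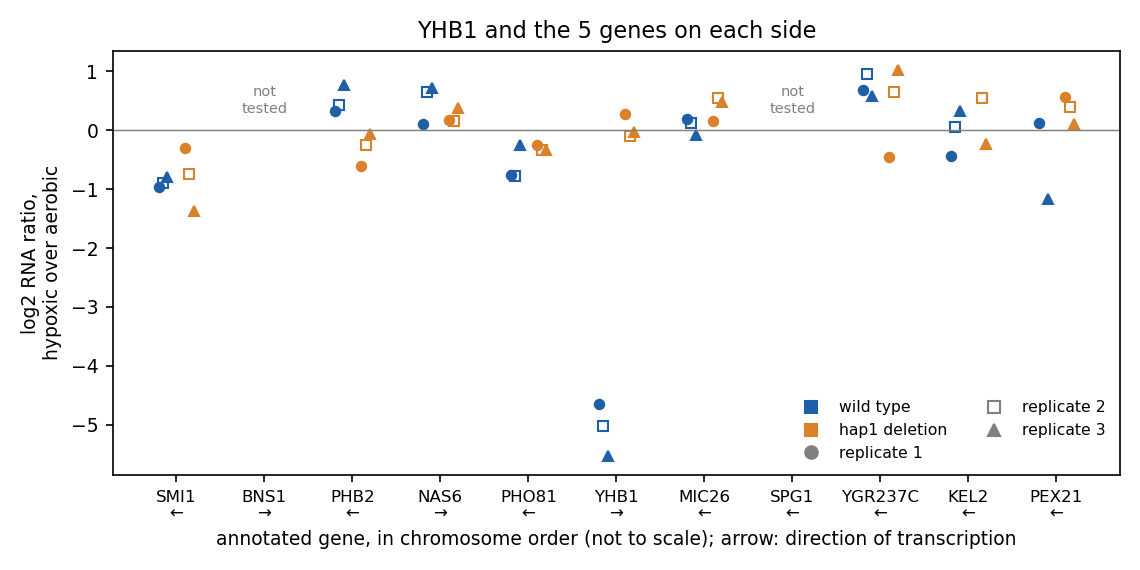
Log2 RNA ratio (hypoxic over aerobic, vertical axis) on each array for YHB1 and the 5 annotated genes on each side of it, in chromosome order (horizontal axis, not to scale). Blue marks wild type, orange the hap1 deletion, and arrows give the direction of transcription. The 3 wild-type points of YHB1, from -4.64 to -5.52, stand alone below the neighbours.

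Some features of the arrays moved within the strains. General stress genes had medians of 2.77, 1.83 and 0.98 on wild-type replicates 1 to 3 and -0.21, 0.62 and 2.31 on deletion replicates 1 to 3, and their part in the YHB1 values was not tested. Of 19 tested, 2 rose in wild type, where 1.92% of all genes did, and 13 had an unadjusted p under 0.05 (24.1%). Both calls were lost without any 1 wild-type array or without deletion replicate 2. None passed in deletion or difference, where 2 and 2 had such a p (24.7% and 7.97% of all genes). The median difference was -0.99, beside -0.03 over all genes. None of 10 mating type markers passed in wild type. In the deletion strain MFA2 alone fell, a call lost whichever of the 6 arrays was left out, and 1.82% of all genes fell there. In the difference between strains none of the markers passed, and 4 had an unadjusted p under 0.05, against 7.97% of all genes. Their median difference was -0.93, beside -0.03 over all genes, and 2 of the 10 were above 0. Across genes, r between arrays of 1 strain was 0.412 to 0.539 for wild type and 0.329 to 0.575 for the deletion. Genes are not independent replicates. Missing values numbered between 15 and 678 per array, and YHB1 had a value on all 6.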

How the data were processed

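The deposited table holds 1 log10 ratio, aerobic over hypoxic, per gene and array. The direction comes from the titles, and spots were quantified with GenePix 5.0, per the labels. The sources used here do not state the background correction, filters or normalization. The base was read from the values: read as base 10, 325 of 36476 came out as fractions of whole numbers (denominator at most 30, within a relative 7e-08), and read as base 2 only 7 did.

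Values were turned to log2, hypoxic over aerobic. Genes with at least 2 values per strain (6208 of 6282) were fitted by lmFit and eBayes (R 4.3.3, limma 3.58.1; two-sided, Benjamini-Hochberg over all genes, threshold 0.05), with 1 residual spread for both strains, 4 residual and 2.97 prior degrees of freedom. The design assumed log2 ratios. The fit was tested on simulated data. The number of arrays limits the precision. Symbols came from RefSeq (R64) for 5707 rows.

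YHB1 and the gene lists were chosen with earlier results of these data known. Genes named were YHB1, the 8 nearest by distance and the 8 highest r, the 5 lowest in wild type, the 8 largest differences, list members that passed or differed most, all Fzf1 list members and the 5 neighbours on each side. Promoter and protein sequences were not analysed here.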

Additional observations from a re-analysis of the deposited data

Results flagged for a closer look

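The difference in the oxygen response of YHB1 between the strains, 5.11 on the log2 scale (hap1 deletion minus wild type), was singled out because the test of the difference itself passed (limma adjusted p = 0.00389). YHB1 was lower in hypoxia on 3 of 3 wild-type arrays, by 25.0-fold to 46.0-fold, and the 3 deletion values lay between -0.10 and 0.27.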

How the results depend on the processing

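The wild-type fall of YHB1 kept its direction and its call under all 16 alternatives run, from -5.27 to -4.59 (limma adjusted p from 8.54e-05 to 0.0296). Counted from the lowest wild-type value, YHB1 was number 3 without wild-type replicate 1 and number 2 without wild-type replicate 3. In the main fit and the other alternatives it was number 1. The difference between strains stayed positive in all 15, from 4.66 to 5.34, and passed in 13 (adjusted p over all 15 from 0.00128 to 0.0673). It missed the threshold with the replicate number as a block (5.11, adjusted p = 0.0673, no gene called and 478 with an unadjusted p under 0.05), a fit with fewer residual degrees of freedom, and with arrays centred and scaled to the same spread (5.34, adjusted p = 0.0528), where the cause was not tested. Deviations of same-numbered arrays from their strain means had r of -0.0331, 0.0585 and 0.135 over 5301 genes, the last the highest of any pairing. Wild-type replicates 1 and 2 did not correlate best with their own numbers. Deviations from a mean of so few arrays are tied to each other, so this check cannot decide whether the numbers are pairs. The main fit did not take them as pairs. With 1 array left out, the wild-type value ran from -5.27 to -4.83, the difference from 4.88 to 5.32 (adjusted p from 0.00602 to 0.0434) and the deletion value from -0.061 to 0.122. The deletion value also changed sign with array weights (-0.016), lay within its interval throughout and passed nowhere. Counted from the largest difference, the rank of YHB1 was 3 in the main fit and 2 to 5 with 1 array left out. It was 4 with quantile normalization, array weights or no filter on missing values.

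Counts over all genes moved far more. The 263 wild-type calls became 42 with a dye term, 2 with the block, 682 with array weights, 2 with the wild-type arrays alone and 2 to 343 with 1 array left out. The 268 deletion calls became 121, 65 and 667 in the first 3 of these, 84 with the deletion arrays alone and 30 to 237 with 1 array left out. The 22 calls of the difference became 7, 0 and 35, 3 with centring and scaling, 13 with quantile normalization and 2 to 16 with 1 array left out. The 8 nearest genes were the same with the arrays scaled. Spearman's rho in place of r was at 1 for 3 genes, 2 of them among the 8 highest r. Only 3 arrays per strain limit the precision, and spot intensities were not analysed here, so signal over background is unknown.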
